A study of Homo sapiens with 8 samples.

Results

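Long non-coding RNAs (lncRNAs) that mark nuclear bodies, retain proteins in the nucleus or are named for colon cancer were followed across cells that differ in their sensitivity to 5-fluorouracil (5-FU). The list was given by symbol and holds 10 genes, namely MALAT1, NEAT1, KCNQ1OT1, NORAD, OIP5-AS1, MIR17HG, PVT1, TUG1, CRNDE and CCAT1. The rule used no expression value. Symbols were matched to the Ensembl gene identifiers of the count tables, and 9 of the 10 were found among 64253 identifiers. CCAT1 had no identifier in the name table and was not analysed here. All 9 matched genes passed the filter on low counts, together with 20305 genes in all, of which 4095 are lncRNA genes in GENCODE 44.

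Polyadenylated RNA was sequenced from HCT-8 cells, an established human colorectal adenocarcinoma line that is sensitive to 5-FU, and from its 5-FU-resistant derivative HCT-8/FU. The 4 groups were HCT-8 and HCT-8/FU in unconditioned medium, and HCT-8 cells in conditioned medium (CM) that had been collected over 48 h from HCT-8 (CM of HCT-8, here parental CM) or from HCT-8/FU (CM of HCT-8/FU, here resistant CM). Each group had 2 libraries, the basal medium was Ham's F12 per the labels (the study's methods give an RPMI medium for HCT-8), and no label places 5-FU in the medium of the cells at harvest. HCT-8/FU is 1 resistant line without a second line to set beside it, so the drug selection and the line cannot be told apart, and no source used here says that the 2 libraries of a group came from separate cultures, so p-values measure the spread between these libraries.

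Between 5804124 and 34881349 reads were counted on genes per library. HCT-8 replicate 1, HCT-8/FU replicate 2 and parental CM replicate 1 stood apart, with 19.96% to 29.6% of their records not aligned against 3.58% to 4.43% in the other libraries. All 7 colon epithelial markers were expressed (KRT8 had a mean of 4815 CPM, counts scaled to library size, in HCT-8). Of 9 markers of other cell types, PTPRC, CD3E and COL1A2 were at 0 counts in all 8 libraries. CD68, PECAM1 and VWF had group means of 0.217 to 1.57 CPM, and ACTA2, COL1A1 and DES of 4.46 to 20.98 CPM. Their sum was 37.8 and 40.5 CPM in HCT-8, 29.8 and 32.3 CPM in HCT-8/FU, 40.9 and 42.4 CPM in parental CM, and 33.8 and 38.0 CPM in resistant CM. Of the 6 tested, 0 were called by edgeR or DESeq2 in these comparisons, and 1 had an unadjusted p below 0.05 in HCT-8/FU with either tool (DES with edgeR, -0.52, edgeR adjusted p = 0.013). Of the epithelial markers 3 were called higher in HCT-8/FU (KRT20 by 1.45), and the part of either marker list in the results was not tested. Genes of low GC content were higher in HCT-8/FU and in resistant CM as a class: over the tested genes of 37.5% to 40% GC the median log2 fold change was 0.59 and 0.46 in these comparisons, against -0.21 and -0.19 at 55% to 57.5%. The exonic bases of the lncRNAs held 37.0% to 47.2% GC against a median of 49.0% over the tested genes, so the fold changes of the 9 lncRNAs in these comparisons, and those of other named genes whose call it changes, are also given after a per-library spline correction for GC content and exonic length, which removes any change that follows these properties whatever its origin. No source used here gives the strand setting of the counting, so reads from opposite strands cannot be told apart.

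Many lncRNAs stay in the nucleus, where they hold proteins or act on chromatin close to the site of their own transcription. MALAT1 gathers at nuclear speckles, which store splicing factors, and NEAT1 is the architectural RNA around which paraspeckles form. Others on the list act as protein sponges, hosts of microRNAs or neighbours of cancer genes, and many were first described because their levels were raised in tumours.

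A gene was called when its adjusted p (edgeR's quasi-likelihood test, Benjamini-Hochberg) was at most 0.05 and its absolute log2 fold change was at least 0.58. In HCT-8/FU against HCT-8, 2 of the 9 lncRNAs were called, both higher (MALAT1 and KCNQ1OT1), where 21.3% of all tested genes and 14.5% of the tested lncRNA genes were called and 13.2% of all tested genes were called higher. By the adjusted p alone 4 of 9 passed (NORAD and TUG1 in addition), against 36.7% of all tested genes. The 9 log2 fold changes ran from 0.01 to 1.03 with a median of 0.52, and all 9 were above 0. The median of all tested genes was 0.0082 and that of lncRNA genes 0.072. In resistant CM against parental CM, 2 of 9 were called, both higher (KCNQ1OT1 and TUG1), where 9.25% of all tested genes and 4.98% of lncRNA genes were called and 7.97% of all were called higher. There 4 of 9 passed by the adjusted p alone (NORAD and OIP5-AS1 in addition) against 19.7% of all genes, and the median was 0.34 with 8 of 9 above 0. After the correction for GC content and length the counts called were 1 of 9 (MALAT1) and 0 of 9, where 15.7% and 4.87% of all genes in that fit were called, and the medians were 0.21 and 0.03. At an unadjusted p below 0.05, 6 of 9 passed in each comparison with edgeR and 5 of 9 with DESeq2, and DESeq2 called 2 of 9 in each. In bulk RNA, fewer cells of a type and less RNA per cell cannot be told apart. The plots of the levels by library and of the fold changes show these values.

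**Figure D1:**
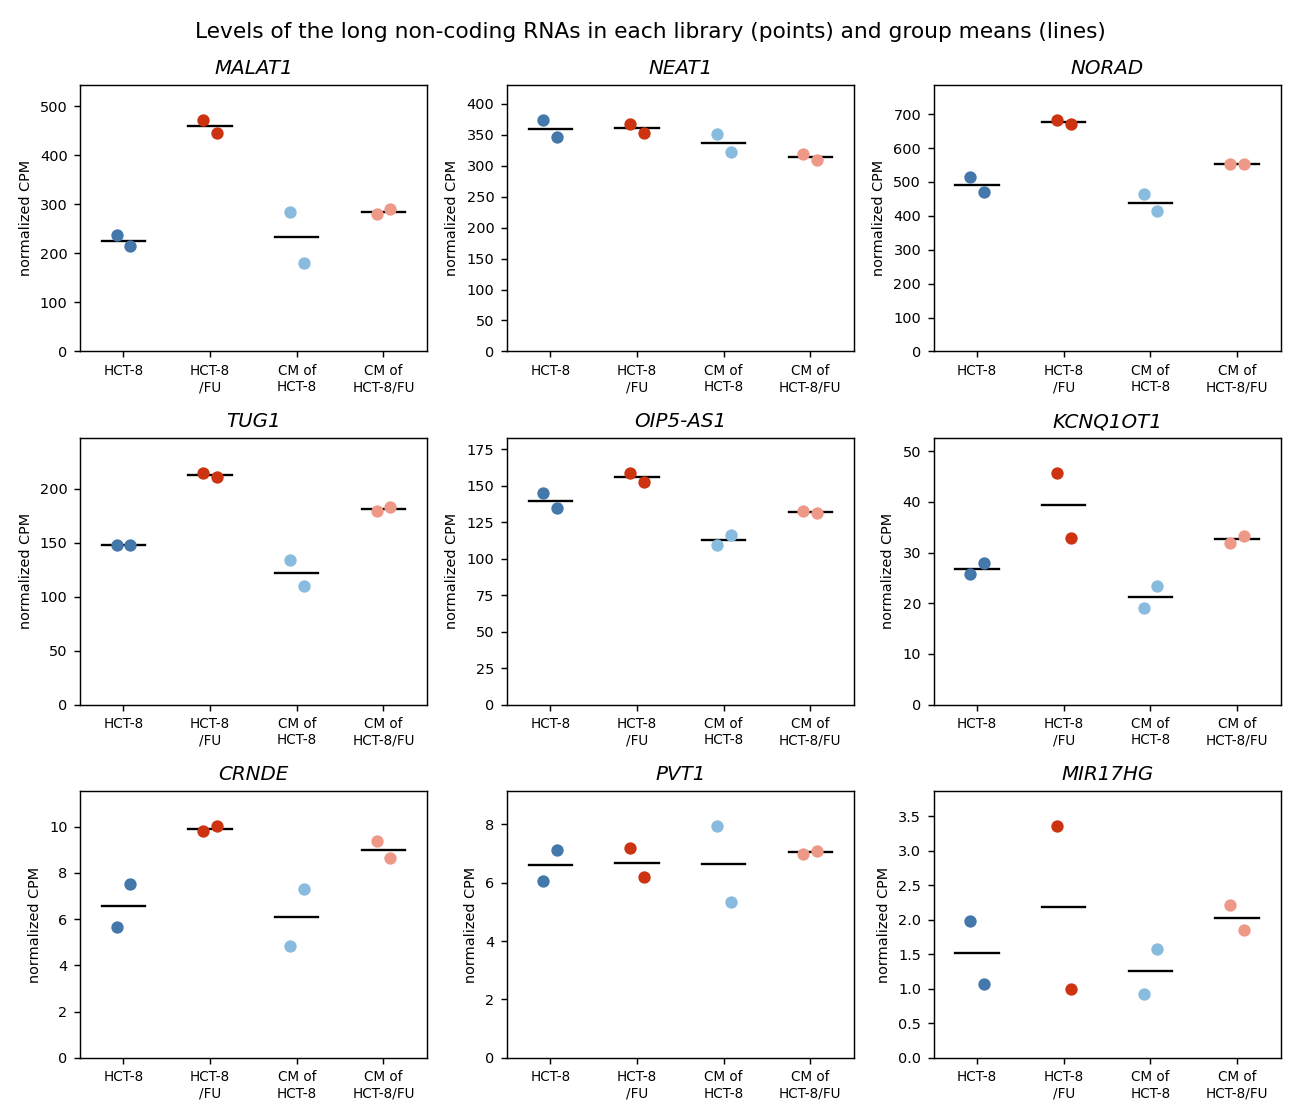
Normalized CPM (vertical axes, each starting at 0) of the 9 lncRNAs in the 8 libraries, by group. Points are libraries and lines are the means of the 2 libraries. MALAT1 sat between 446 and 473 CPM in HCT-8/FU, above all 6 other libraries, and NEAT1 stayed between 309 and 374 CPM in all 8.

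**Figure D2:**
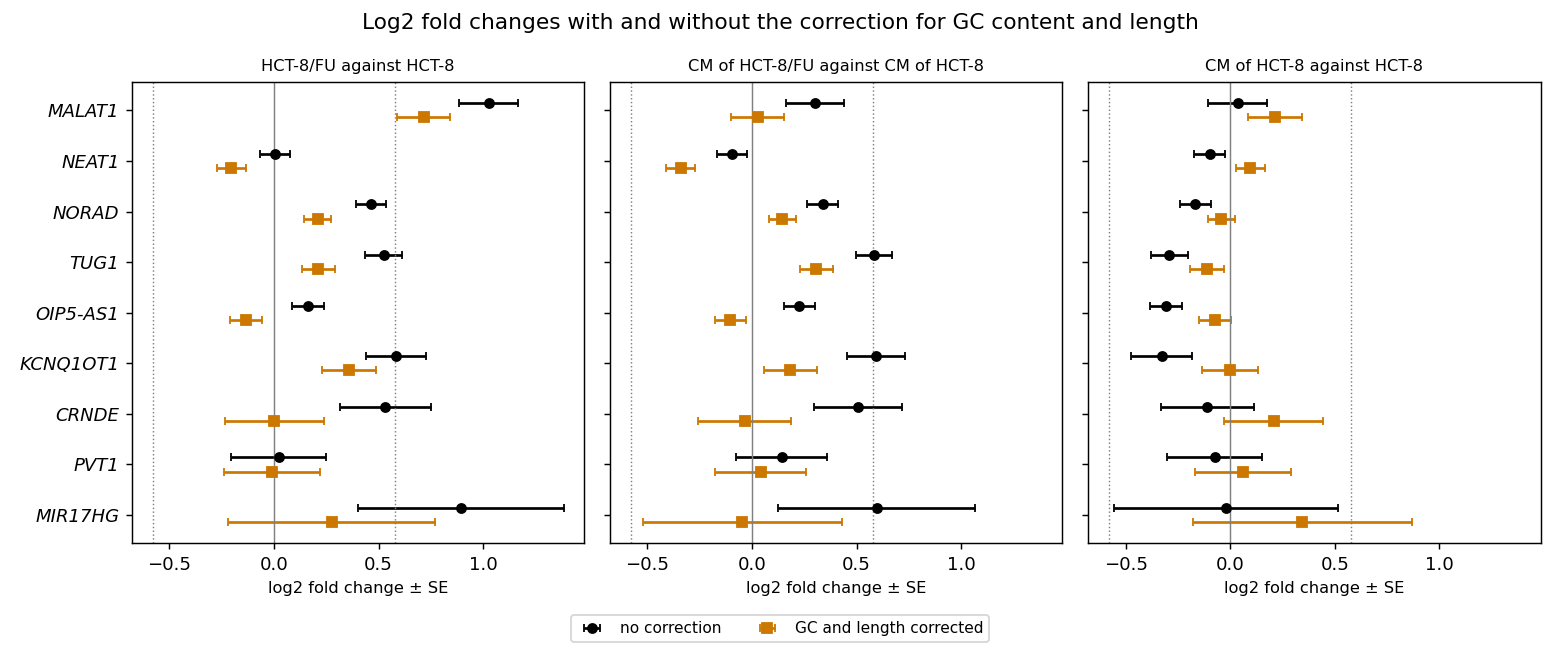
Log2 fold changes with their SE (horizontal axes) in 3 comparisons, without (circles) and with (squares) the correction for GC content and length. Dotted lines mark the fold threshold of 0.58. With the correction, MALAT1 in HCT-8/FU (0.72) was the one value left beyond the threshold.

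MALAT1 lies on chromosome 11 (65497640 to 65508073, plus strand, GRCh38, GENCODE 44), where its exons merge into 1 block of 10434 bases. Its mature 3′ end has no poly(A) tail. It is made when the precursor is cut in front of a tRNA-like small RNA (mascRNA), and a genome-encoded A-rich tract pairs with U-rich motifs upstream to form a protective triple helix. The stretch is shown because poly(A) capture of an RNA without a tail can rest on encoded A runs such as this one. The 78 bases before the mascRNA gene of RefSeq (GRCh38.p14) are at chr11:65506039-65506116 on the plus strand, with runs of at least 4 T and of at least 10 A in capitals.
MALAT1 3′ end: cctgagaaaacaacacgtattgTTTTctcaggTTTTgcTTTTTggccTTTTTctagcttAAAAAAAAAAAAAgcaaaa
The A run is 13 bases long, and 6 bases lie between it and the mascRNA gene of 58 bases.

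In HCT-8, MALAT1 had 237 and 216 CPM in replicates 1 and 2. In HCT-8/FU it had 473 and 446 CPM. Both HCT-8/FU libraries stood above both HCT-8 libraries, and above all 4 CM libraries. MALAT1 was 2.04-fold higher in HCT-8/FU (log2 fold change 1.03, SE 0.14, edgeR adjusted p = 3.83e-05). The 2 groups did not overlap for 6 of the 9 lncRNAs, nor for 65% of all tested genes. With the GC content and length correction the log2 fold change was 0.72 (SE 0.13, edgeR adjusted p = 0.000584). The uncorrected value stayed between 0.96 and 1.09 when any 1 of the 8 libraries was left out. Among the 1997 tested genes of 40% to 42.5% GC the MALAT1 fold change stood at the 82.5th percentile, as the plot over GC content shows.

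**Figure D3:**
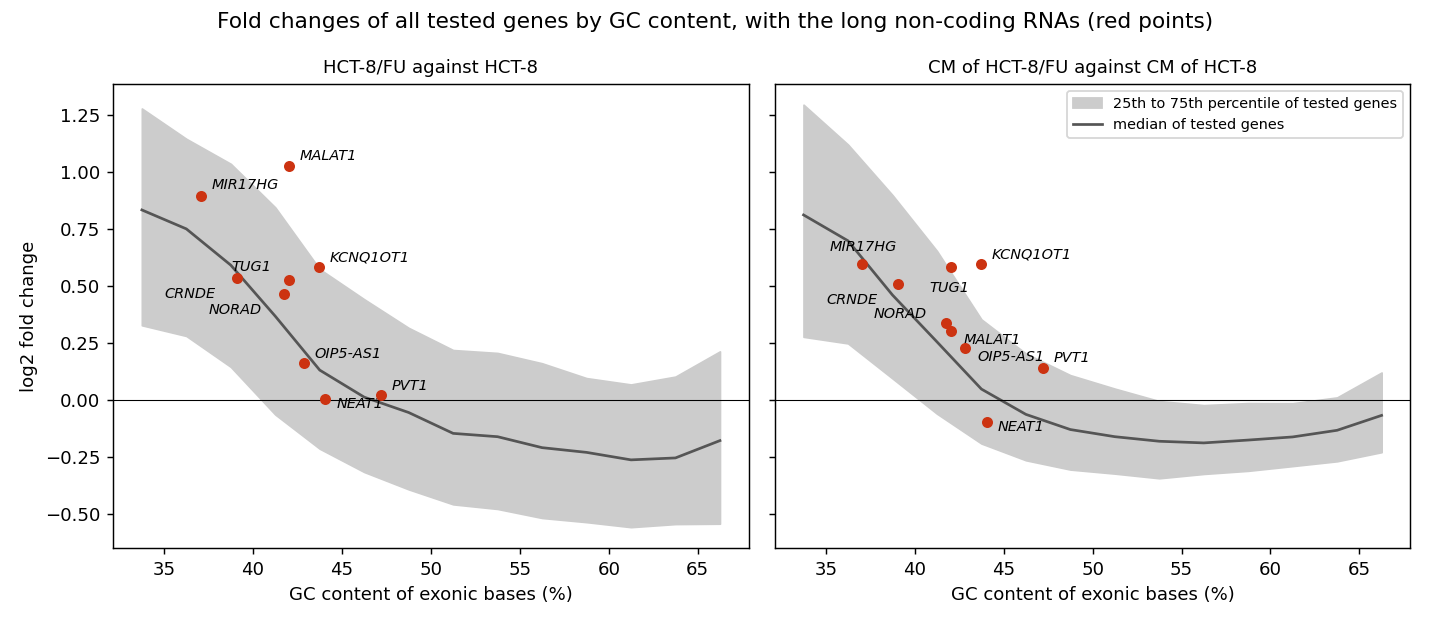
Log2 fold change (vertical axis) against GC content of the exonic bases (horizontal axis, %) for all tested genes, as the median (line) and the 25th to 75th percentile (grey band) in bins of GC content. The red points are the 9 lncRNAs. In the left panel MALAT1 lies above the band, and KCNQ1OT1 (0.584) just above its edge (0.573). NORAD, TUG1, CRNDE and OIP5-AS1 lie close to the median of genes of their GC content.

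In CM the MALAT1 libraries did not separate in the same way. Parental CM had 286 and 181 CPM and resistant CM had 280 and 291 CPM. Replicate 1 of parental CM, a library with 29.6% of records not aligned, lay between the resistant CM libraries, and replicate 2 was the lowest of all 8. The log2 fold change was 0.30 (SE 0.14, edgeR adjusted p = 0.15). It was 0.65 (edgeR adjusted p = 1.84e-06) without parental CM replicate 1 and -0.0022 (edgeR adjusted p = 0.99) without replicate 2, so 1 library decided this value. The difference between the fold changes in HCT-8/FU and in resistant CM was 0.73 on the log2 scale (SE 0.20, edgeR adjusted p = 0.027), the only 1 of 9 called in that test, where 7.69% of all tested genes were called. It was 0.38 without parental CM replicate 1 and 1.03 without replicate 2. Leaving out any of the 8 libraries other than parental CM replicate 2 ended that call, and DESeq2 gave an adjusted p of 0.17. With the correction the difference was 0.69 (edgeR adjusted p = 0.022). The log2 fold change of parental CM against HCT-8 was 0.04 (SE 0.14, edgeR adjusted p = 0.90), a value that was -0.31 (edgeR adjusted p = 0.0061) without parental CM replicate 1 and 0.34 (edgeR adjusted p = 0.0043) without replicate 2.

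The strand limit touches MALAT1, since 83.7% of its exonic bases lie opposite exons of antisense genes, TALAM1 among them. TALAM1 was not matched and is not analysed here. The antisense gene there that was matched (610 bases, ENSG00000270117) held 13 counts over the 8 libraries, against 50974 on MALAT1.

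NEAT1 is the neighbour of MALAT1 on chromosome 11 (65422774 to 65445540, plus strand), with 52099 bases between the genes. A short polyadenylated form and a long form without a poly(A) tail share its start, and the long form builds the paraspeckle. Poly(A) selection favours the short form, and counts per gene do not separate the forms. The canonical transcript of 22743 bases holds a window of 20 A in 20 bases at base 18046. Whether encoded A runs such as this let the long form be captured was not tested. NEAT1 had 374 and 346 CPM in HCT-8, and 368 and 353 CPM in HCT-8/FU. It had 351 and 322 CPM in parental CM, and 319 and 309 CPM in resistant CM. The libraries of HCT-8 and HCT-8/FU interleaved, and those of resistant CM were the lowest 2 of all 8. The log2 fold changes were 0.01 (SE 0.073, edgeR adjusted p = 0.96) in HCT-8/FU and -0.10 (SE 0.073, edgeR adjusted p = 0.40) in resistant CM. With the correction they were -0.20 (SE 0.070, edgeR adjusted p = 0.037) and -0.34 (SE 0.069, edgeR adjusted p = 0.0045), both under the fold threshold.

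The ratio of MALAT1 counts to NEAT1 counts within a library does not depend on library size or scaling. It was 0.632 and 0.625 in HCT-8, and 1.29 and 1.26 in HCT-8/FU. It was 0.813 and 0.564 in parental CM, and 0.876 and 0.940 in resistant CM. The ratio exceeded 1 in the HCT-8/FU libraries alone among the 8. It was 2.03-fold higher in HCT-8/FU than in HCT-8 and 1.34-fold higher in resistant CM than in parental CM, without overlap of the groups in either case. A two-sided exact permutation test gave p = 0.333 for both, the smallest p that 2 libraries against 2 allow.

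**Figure D4:**
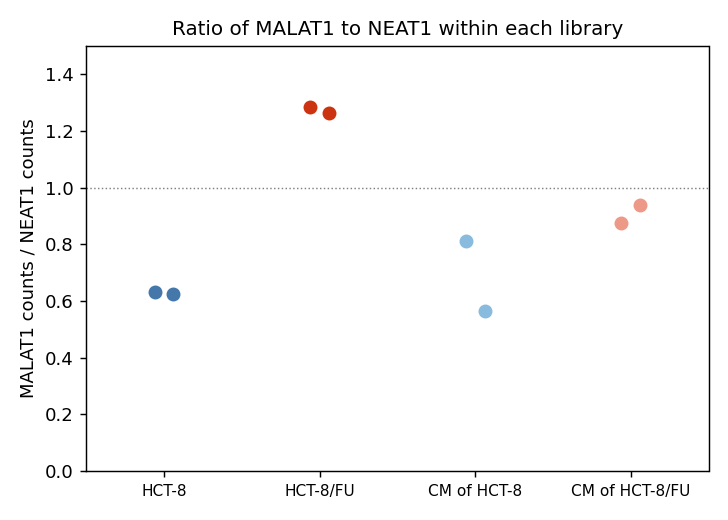
Ratio of MALAT1 counts to NEAT1 counts (vertical axis, from 0) in each of the 8 libraries, by group. The dotted line marks equal counts. The HCT-8/FU libraries lie at 1.29 and 1.26, and the other 6 between 0.564 and 0.940.

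KCNQ1OT1 is the paternally expressed antisense RNA of the KCNQ1 imprinted domain, where it silences neighbours such as CDKN1C in cis. It lies on chromosome 11 (2597308 to 2700003, minus strand). KCNQ1OT1 had 25.8 and 27.9 CPM in HCT-8, and 45.7 and 32.9 CPM in HCT-8/FU. It had 18.99 and 23.4 CPM in parental CM, and 31.9 and 33.2 CPM in resistant CM. HCT-8/FU and resistant CM stood above their controls without overlap, and HCT-8/FU replicate 1 was the highest of all 8. The log2 fold change was 0.58 in HCT-8/FU (SE 0.14, edgeR adjusted p = 0.0042) and 0.59 in resistant CM (SE 0.14, edgeR adjusted p = 0.0071), both at the edge of the fold threshold. With the correction they were 0.36 (edgeR adjusted p = 0.049) and 0.18 (edgeR adjusted p = 0.45), and both calls ended. Among the 2107 tested genes of 42.5% to 45% GC the uncorrected values stood at the 75.7th and 85.2nd percentiles. The exonic length of KCNQ1OT1 is 92625 bases, against a median of 3910 over the tested genes. How much of the drop came from GC content and how much from length was not tested. In HCT-8/FU the call also ended without HCT-8/FU replicate 1, where the log2 fold change was 0.28 (edgeR adjusted p = 0.22), without HCT-8 replicate 1 (0.54), and narrowly, without resistant CM replicate 1 or 2 (0.577 in each). In CM it ended without parental CM replicate 1 (0.48) and without resistant CM replicate 2 (0.57).

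KCNQ1OT1 lies wholly opposite the KCNQ1 gene, with 1.21% of its exonic bases opposite exons. KCNQ1, a potassium channel gene with 10058 counts over the 8 libraries against 5519 of KCNQ1OT1, had a log2 fold change of -0.33 (SE 0.090, edgeR adjusted p = 0.0092) in HCT-8/FU and of -0.17 (edgeR adjusted p = 0.18) in resistant CM. CDKN1C, a cell cycle inhibitor gene of the same domain, was at 0.15 (edgeR adjusted p = 0.48) and -0.06 (edgeR adjusted p = 0.80). With the correction KCNQ1 was at -0.012 (edgeR adjusted p = 0.94) and 0.028 (edgeR adjusted p = 0.90), and CDKN1C at 0.38 (edgeR adjusted p = 0.069) and 0.037 (edgeR adjusted p = 0.92). Unspliced KCNQ1 RNA and KCNQ1OT1 RNA cannot be told apart without strand.

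NORAD is an abundant RNA that sequesters Pumilio proteins such as PUM2, repressors of messenger RNAs that carry their motif. It lies on chromosome 20 (36045618 to 36051018, minus strand) as a single exon of 5401 bases. The Pumilio motif TGTANATA was searched on both strands of the canonical transcripts of 19857 tested genes. NORAD held 15 matches on its own strand and 1 on the other. Of the 1362 tested transcripts within 10% of its length, 45.9% held a match on their own strand, their median was 0, and none other held as many. Over all transcripts 23.4% held a match on their own strand, and 1 transcript held more than NORAD. Of the 15 matches 10 read TGTATATA, 4 read TGTAAATA and 1 read TGTACATA, and they lay between bases 819 and 4657 of the transcript, with 3 pairs of matches starting 9 bases apart. Of the other lncRNAs on the list, NEAT1 held 6 matches on its own strand and 7 on the other. TUG1 held 2 and 1 and MALAT1 0 and 3, and the canonical transcripts of the rest held none. Those of KCNQ1OT1, MIR17HG, CRNDE, PVT1 and OIP5-AS1 are 679, 747, 919, 2444 and 3231 bases long. The exonic lengths of these genes are 92625, 12894, 14741, 25431 and 22370 bases, so most of their exonic sequence was not searched. A match is a description of the sequence, not a test of binding. Of the 15, 6 with like flanks were picked to show here, so they do not tell how alike all 15 are. Each has 8 bases on either side and the motif in capitals, read from GRCh38 on the minus strand.
NORAD match 2, chr20:36049806-36049829: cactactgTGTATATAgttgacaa
NORAD match 11, chr20:36047974-36047997: ccctactgTGTATATAgcggacaa
NORAD match 14, chr20:36047353-36047376: tgctactgTGTATATAatggaaaa
NORAD match 3, chr20:36049705-36049728: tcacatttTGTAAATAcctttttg
NORAD match 6, chr20:36049121-36049144: taccacttTGTAAATAtctttttg
NORAD match 8, chr20:36048480-36048503: taacacttTGTAAATAgcttttaa

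NORAD was the highest of the 9 in CPM and per length. It had 514 and 471 CPM in HCT-8, and 684 and 672 CPM in HCT-8/FU. It had 464 and 413 CPM in parental CM, and 554 and 552 CPM in resistant CM. The order was HCT-8/FU, resistant CM, HCT-8 and parental CM, and no 2 neighbours in that order overlapped. NORAD was 1.38-fold higher in HCT-8/FU (log2 fold change 0.46, SE 0.074, edgeR adjusted p = 0.000145) and 1.26-fold higher in resistant CM (0.34, SE 0.074, edgeR adjusted p = 0.0043), both under the fold threshold. With the correction the values were 0.21 (edgeR adjusted p = 0.024) and 0.15 (edgeR adjusted p = 0.19).

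PUM2, the gene of a bound protein, had a mean of 78.3 CPM in HCT-8 and 169 CPM in HCT-8/FU, a log2 fold change of 1.11 (SE 0.089, edgeR adjusted p = 2.22e-07). In resistant CM the PUM2 value was 0.72 (SE 0.086, edgeR adjusted p = 2.59e-05). With the correction PUM2 was at 0.78 (edgeR adjusted p = 2.75e-06) and 0.44 (edgeR adjusted p = 0.0012), the second under the fold threshold.

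TUG1, on chromosome 22 (30969245 to 30979395, plus strand; GENCODE 44 types the gene as protein coding, so it is not among the lncRNA genes counted above), is an RNA of nucleus and cytoplasm linked to Polycomb proteins and first described in retinal cells. TUG1 had 148 CPM in each HCT-8 library, and 214 and 211 CPM in HCT-8/FU. It had 134 and 110 CPM in parental CM, and 179 and 183 CPM in resistant CM. The order of the groups was that of NORAD, again with no overlap between neighbours. The log2 fold change was 0.52 in HCT-8/FU (SE 0.087, edgeR adjusted p = 0.000206), under the fold threshold, and 0.58 in resistant CM (SE 0.086, edgeR adjusted p = 0.000185), at it. The call in CM ended without parental CM replicate 2 (0.44) or resistant CM replicate 2 (0.56). With the correction the values were 0.21 (edgeR adjusted p = 0.054) and 0.31 (edgeR adjusted p = 0.019), and neither was called. A pair of antisense genes lies wholly opposite TUG1 exons, and with 13.2 and 8.08 counts per base over the 8 libraries they were denser than TUG1 itself (2.87 counts per base), so how much of either signal belongs to which strand cannot be told apart.

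NORAD and TUG1 had the closest profiles among the 9, with a Pearson r of log2 CPM of 0.97 over the 8 libraries, which share their scaling and their GC trend. MALAT1 and NORAD followed with 0.94 and MALAT1 and TUG1 with 0.88, while MALAT1 and NEAT1 had 0.36. Their promoters are shown because these 3 profiles were alike. RefSeq (GRCh38.p14) gives 300 bases for each around a start, and MALAT1 has an entry at each of 2 starts, of which the upstream one is shown. Both strands were searched for the CCAAT box (CCAAT), the GC box (GGGCGG), the E-box (CACGTG), the TATA box (TATAAA) and the cyclic AMP response element (TGACGTCA), none of which contains another. Of the 35116 promoters of the same length, 34.6% held a CCAAT box, 15786 a GC box, 7.3% an E-box, 4049 a TATA box and 1.8% a response element. Matches stand in capitals.
MALAT1, chr11:65497488-65497787, plus strand: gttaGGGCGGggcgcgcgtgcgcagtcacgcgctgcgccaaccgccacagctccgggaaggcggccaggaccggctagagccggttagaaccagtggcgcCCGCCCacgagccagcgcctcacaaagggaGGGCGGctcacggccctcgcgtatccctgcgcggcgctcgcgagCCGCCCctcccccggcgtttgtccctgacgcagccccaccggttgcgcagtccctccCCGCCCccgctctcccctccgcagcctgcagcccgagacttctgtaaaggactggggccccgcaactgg
NORAD, chr20:36050911-36051210, minus strand: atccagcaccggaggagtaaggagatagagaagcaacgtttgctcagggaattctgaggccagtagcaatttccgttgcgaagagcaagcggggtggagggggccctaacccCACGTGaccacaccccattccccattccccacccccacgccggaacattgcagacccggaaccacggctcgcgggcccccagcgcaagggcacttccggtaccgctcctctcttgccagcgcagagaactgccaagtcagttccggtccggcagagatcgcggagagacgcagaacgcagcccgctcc
TUG1, chr22:30969015-30969314, plus strand: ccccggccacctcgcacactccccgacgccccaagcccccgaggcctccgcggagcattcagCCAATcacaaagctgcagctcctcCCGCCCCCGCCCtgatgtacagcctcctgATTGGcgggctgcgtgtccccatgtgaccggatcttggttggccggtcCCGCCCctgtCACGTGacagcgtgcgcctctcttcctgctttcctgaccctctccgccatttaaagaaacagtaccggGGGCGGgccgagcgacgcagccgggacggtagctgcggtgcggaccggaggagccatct
In the windows shown, MALAT1 held 5 GC boxes, NORAD 1 E-box, and TUG1 2 CCAAT boxes, 4 GC boxes and 1 E-box. The downstream window of MALAT1, not shown, held 0 GC boxes and 1 TATA box. The promoters of 6 lncRNAs were searched, and those of the rest of the list were not. Of these 6, OIP5-AS1, whose window is not shown, was the other to hold an E-box. These letters are a description of the windows and were not tested against the expression values.

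OIP5-AS1, known as cyrano, is a conserved RNA that pairs with miR-7 and binds the RNA-stabilising protein ELAVL1. It lies on chromosome 15 (41283958 to 41322392, plus strand) and overlaps OIP5, a centromere protein gene on the other strand. OIP5-AS1 had 145 and 135 CPM in HCT-8, and 159 and 153 CPM in HCT-8/FU. It had 109 and 116 CPM in parental CM, and 133 and 131 CPM in resistant CM. No 2 groups overlapped, and the groups in unconditioned medium were the higher ones. The log2 fold change was 0.16 in HCT-8/FU (SE 0.075, edgeR adjusted p = 0.11) and 0.23 in resistant CM (SE 0.074, edgeR adjusted p = 0.044). With the correction both turned negative, to -0.13 (edgeR adjusted p = 0.21) and -0.10 (edgeR adjusted p = 0.48). Of the exonic bases of OIP5-AS1, 3.39% lie opposite OIP5 exons and 3.17% are shared with NUSAP1 and another gene on the same strand. OIP5 rose by 0.97 in HCT-8/FU (SE 0.27, edgeR adjusted p = 0.011) and was at 0.09 in resistant CM (SE 0.25, edgeR adjusted p = 0.85), and with the correction at 0.98 (edgeR adjusted p = 0.012) and 0.19 (edgeR adjusted p = 0.73). ELAVL1 was at -0.20 (edgeR adjusted p = 0.051) and -0.15 (edgeR adjusted p = 0.17).

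CRNDE is named colorectal neoplasia differentially expressed, since it is raised in colorectal tumours. It lies on chromosome 16 (54845189 to 54929189, minus strand), 1675 bases from the start of the divergent gene IRX5, a homeobox factor. CRNDE had 5.66 and 7.51 CPM in HCT-8, and 9.80 and 10.0 CPM in HCT-8/FU. It had 4.83 and 7.31 CPM in parental CM, and 9.40 and 8.63 CPM in resistant CM. The HCT-8/FU and resistant CM libraries were all above the other 4. The log2 fold changes of 0.53 (SE 0.22, edgeR adjusted p = 0.071) and 0.51 (SE 0.21, edgeR adjusted p = 0.11) did not pass, and with the correction they were 0.0013 and -0.04. Without parental CM replicate 2 the value in CM was 0.90 (edgeR adjusted p = 0.025). IRX5 was at 0.16 (edgeR adjusted p = 0.70) and -0.12 (edgeR adjusted p = 0.79), at a mean of 3.14 CPM in HCT-8.

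MIR17HG is the host transcript of the miR-17-92 cluster, an oncogenic set of microRNAs under the control of E2F factors, and lies on chromosome 13 (91347686 to 91397592, plus strand). Its 6 hairpins are cut out of the precursor by DROSHA and DGCR8 in the nucleus, and DICER1 finishes them. The microRNAs themselves are too short for these libraries. The mature arms best known as active are shown by shared seed because the seed (bases 2 to 8, capitals) sets the targets. Sequences are from RefSeq (GRCh38.p14) at chr13:91350618-91351382, plus strand.
miR-17-5p: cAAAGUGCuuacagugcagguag
miR-20a-5p: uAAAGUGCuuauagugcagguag
miR-18a-5p: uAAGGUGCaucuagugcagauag
miR-19a-3p: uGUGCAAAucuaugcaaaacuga
miR-19b-3p: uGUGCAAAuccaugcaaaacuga
miR-92a-3p: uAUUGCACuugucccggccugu
The first pair and the miR-19 pair each share a seed, and miR-18a-5p and miR-92a-3p have seeds of their own.

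MIR17HG was the lowest of the 9 in CPM. It had 1.97 and 1.06 CPM in HCT-8, and 3.36 and 1.00 CPM in HCT-8/FU. It had 0.921 and 1.58 CPM in parental CM, and 2.21 and 1.85 CPM in resistant CM. HCT-8/FU replicate 1 was the highest of all 8 on 101 counts and replicate 2, on 6 counts, lay among the lowest. The log2 fold change was 0.89 (SE 0.49, edgeR adjusted p = 0.18) in HCT-8/FU and 0.60 (SE 0.47, edgeR adjusted p = 0.43) in resistant CM. Without HCT-8/FU replicate 2 it was 1.31 and called (edgeR adjusted p = 0.044), and without replicate 1 it was -0.44 (edgeR adjusted p = 0.71), so no direction was detectable at this depth. With only the libraries under 15% not aligned, which leaves 1 library in 3 groups, it was 1.65 and called (edgeR adjusted p = 0.000412). With the correction it was 0.28 (SE 0.50, edgeR adjusted p = 0.73) and -0.046 (SE 0.47, edgeR adjusted p = 0.97).

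Of 10 regulators, processing factors and targets of the cluster, 3 were called in HCT-8/FU, beside 21.3% of all tested genes. DICER1 rose by 1.603 (SE 0.13, edgeR adjusted p = 2.85e-07), while the cell cycle inhibitor and target CDKN1A fell by 0.72 (edgeR adjusted p = 6.41e-06). In resistant CM, 2 were called, DICER1 at 1.27 (edgeR adjusted p = 7.33e-06) among them, beside 9.25% of all. With the correction DICER1 kept its call in both (1.05 and 0.69), while CDKN1A in HCT-8/FU lost it (-0.43, edgeR adjusted p = 0.00071). DROSHA was at 0.39 (edgeR adjusted p = 0.012) and 0.01 (edgeR adjusted p = 0.97), and DGCR8 at 0.55 (edgeR adjusted p = 0.000637) and -0.25 (edgeR adjusted p = 0.081). With the correction DROSHA was at 0.23 (edgeR adjusted p = 0.104) and -0.11 (edgeR adjusted p = 0.59), and DGCR8 was at 0.77 (edgeR adjusted p = 2.93e-05), a call gained, and -0.103 (edgeR adjusted p = 0.57).

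PVT1 lies 51574 bases downstream of MYC on chromosome 8 (127794526 to 128187101, plus strand) and is often gained together with that oncogene. PVT1 had 6.06 and 7.13 CPM in HCT-8, and 7.18 and 6.18 CPM in HCT-8/FU. It had 7.94 and 5.35 CPM in parental CM, and 6.99 and 7.10 CPM in resistant CM. All 4 groups overlapped. The log2 fold changes were 0.02 (SE 0.23, edgeR adjusted p = 0.95) and 0.14 (SE 0.22, edgeR adjusted p = 0.71), and 37 to 241 counts per library lay behind them. With the correction they were -0.010 (edgeR adjusted p = 0.98) and 0.041 (edgeR adjusted p = 0.95). MYC, with a mean of 243 CPM in HCT-8, was at -0.03 (SE 0.081, edgeR adjusted p = 0.80) in HCT-8/FU. In resistant CM it was at -0.31 (SE 0.079, edgeR adjusted p = 0.012), under the fold threshold. With the correction MYC was at 0.14 (edgeR adjusted p = 0.22) and -0.16 (edgeR adjusted p = 0.24).

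The proteins that assemble on these RNAs were followed by their own genes. Of 12 paraspeckle protein genes, 5 were called in HCT-8/FU, all higher, and 0 were called in resistant CM, where 6 passed by the adjusted p alone. Beside these, 13.2% and 7.97% of all tested genes were called higher. SFPQ, which binds NEAT1 directly, had a mean of 202 CPM in HCT-8 and 474 CPM in HCT-8/FU, a log2 fold change of 1.23 (SE 0.094, edgeR adjusted p = 1.64e-07). In resistant CM the SFPQ value was 0.26 (SE 0.092, edgeR adjusted p = 0.061), and the difference between the fold changes was 0.97 (SE 0.13, edgeR adjusted p = 0.000198). CPSF6 and NUDT21, which act together in choosing poly(A) sites, rose by 0.79 and 0.73 in HCT-8/FU. With the correction both calls ended, at 0.24 (edgeR adjusted p = 0.068) and 0.19 (edgeR adjusted p = 0.055). NONO, the partner of SFPQ, went the other way, at -0.25 (SE 0.069, edgeR adjusted p = 0.0095) in HCT-8/FU and -0.31 (SE 0.068, edgeR adjusted p = 0.0044) in resistant CM, and PSPC1 was at 0.49 (edgeR adjusted p = 0.000684) and 0.06 (edgeR adjusted p = 0.70). With the correction 3 of 12 were called in HCT-8/FU, SFPQ (1.11) and RBM14 (0.60, against 0.42 without it) among them. Of all genes in that fit 15.7% were called. The median of the list was 0.45 in HCT-8/FU and -0.12 in resistant CM, beside 0.0082 and -0.06 over all tested genes.

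Of 11 genes for nuclear RNA decay and retention, 4 were called in HCT-8/FU and 3 in resistant CM, all higher, beside 13.2% and 7.97% of all tested genes. MPHOSPH6 and DIS3, of the exosome that degrades RNA, rose by 1.12 and 0.93 in HCT-8/FU, and MTREX, the helicase that feeds it, and ZFC3H1, which holds polyadenylated RNA in the nucleus, by 0.79 each. In resistant CM ZFC3H1 rose by 1.179 (SE 0.12, edgeR adjusted p = 5.28e-06), DIS3 by 1.00 and MTREX by 0.84. With the correction 1 of 11 was called in each, MPHOSPH6 (0.63) and ZFC3H1 (0.70), beside 15.7% and 4.87% of all genes in that fit. DIS3 and MTREX were then at 0.46 and 0.41 in HCT-8/FU and at 0.55 and 0.51 in resistant CM, and ZFC3H1 at 0.28 in HCT-8/FU, each with an edgeR adjusted p of at most 0.05 but under the fold threshold. Of 10 protein partner genes, 3 were called in HCT-8/FU, all higher, SUZ12 of Polycomb complex PRC2 (1.14), PUM2 (1.11) and HNRNPU (0.64). In resistant CM 2 were called, SUZ12 (0.95) and PUM2 (0.72). Of all tested genes 13.2% and 7.97% were called higher. With the correction 2 and 0 of 10 were called, beside 15.7% and 4.87% of all genes in that fit. SUZ12 was then at 0.65 and 0.52, and HNRNPU at 0.016 (edgeR adjusted p = 0.88) in HCT-8/FU and -0.51 (edgeR adjusted p = 0.000168) in resistant CM. METTL16, which binds the MALAT1 triple helix, was at -0.22 (edgeR adjusted p = 0.10) and -0.16 (edgeR adjusted p = 0.28).

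**Figure D5:**
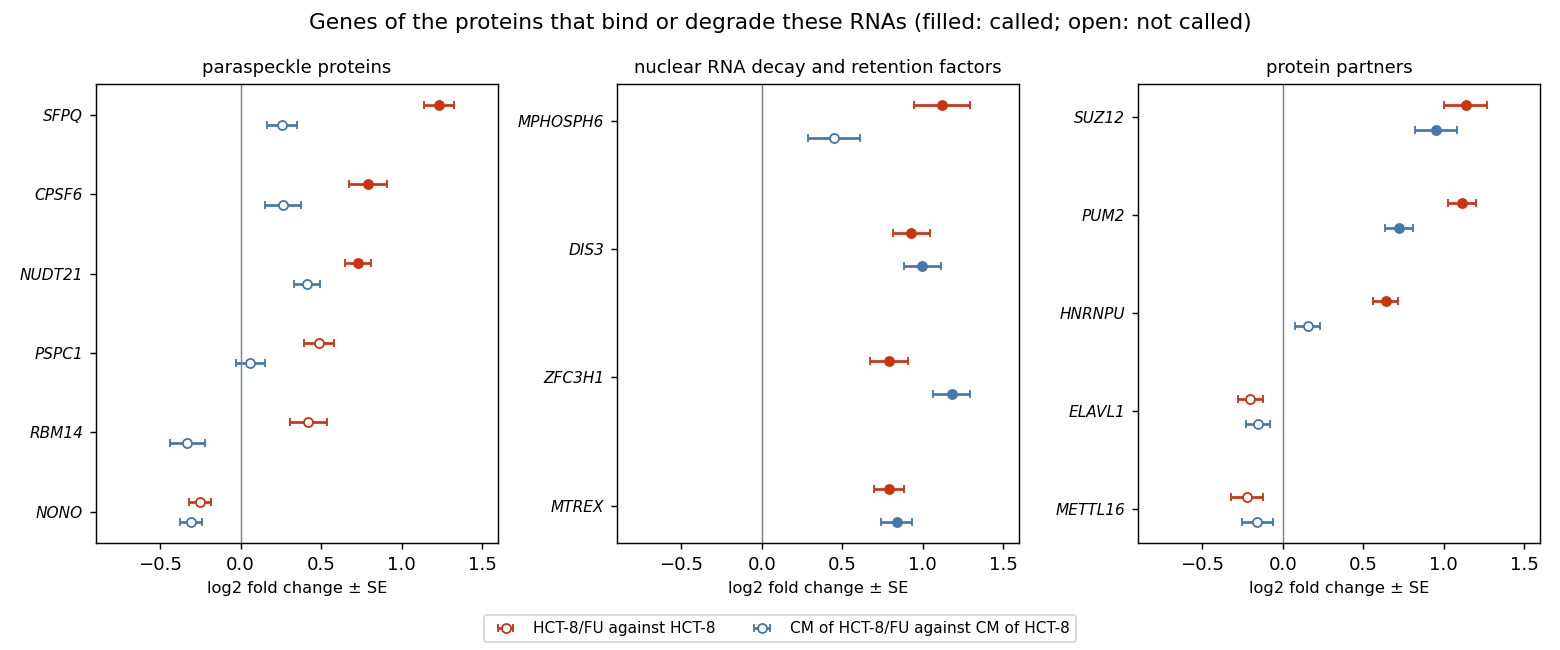
Log2 fold changes with SE (horizontal axes) of genes for paraspeckle proteins, nuclear RNA decay and retention factors and protein partners, in HCT-8/FU against HCT-8 (red) and resistant CM against parental CM (blue), without the correction. Drawn are only the genes named in the text, so the panels do not show the shares called. Filled points were called and open points were not. SFPQ reached 1.23 in HCT-8/FU and 0.26 in resistant CM.

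Of 13 tested neighbours of the lncRNA genes, 3 were called in HCT-8/FU and 0 in resistant CM, where 2 passed by the adjusted p alone, beside 21.3% and 9.25% of all tested genes. NUSAP1, a spindle gene beside OIP5, rose by 1.25 and OIP5 by 0.97, and with the correction they were at 1.38 and 0.98, both called. Of 16 other lncRNAs tested, 4 were called in HCT-8/FU, HOTAIR (1.02) and DLEU2 (0.79) higher and MIR22HG (-1.51) and CYTOR (-0.74) lower, and 8 were called with only the libraries under 15% not aligned. In resistant CM 3 were called, CASC19 (1.07) and FTX (1.01) higher and CYTOR (-0.62) lower. With the correction 4 and 1 of 16 were called, CYTOR among them in both (-0.86 and -0.76), where 15.7% and 4.87% of all genes were called. In HCT-8/FU H19 then joined at 0.77 and DLEU2 lost its call (0.45, edgeR adjusted p = 0.106), and in resistant CM CASC19 (0.51, edgeR adjusted p = 0.37) and FTX (0.32, edgeR adjusted p = 0.52) lost theirs.

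Growth in parental CM was compared with growth in unconditioned medium, a comparison that shares its libraries with both of the above. None of the 9 lncRNAs was called by edgeR or by DESeq2, where edgeR called 8.15% of all tested genes (3.86% higher) and 4.93% of lncRNA genes. With the correction 0 of 9 were called too, beside 5.77% of all genes. By the adjusted p alone 2 of 9 passed against 19.4% of all genes, and at an unadjusted p below 0.05 there were 4 with either tool. OIP5-AS1 changed by -0.31 (SE 0.076, edgeR adjusted p = 0.010) and TUG1 by -0.29 (SE 0.088, edgeR adjusted p = 0.030). With the correction these were at -0.07 (edgeR adjusted p = 0.60) and -0.11 (edgeR adjusted p = 0.41). KCNQ1OT1 was at -0.33 (SE 0.15, edgeR adjusted p = 0.14) and NORAD at -0.17 (SE 0.074, edgeR adjusted p = 0.14), and the other 5 lay between -0.11 and 0.04. The median of the 9 was -0.11, beside 0.014 over all tested genes. The groups of KCNQ1OT1, NORAD, OIP5-AS1 and TUG1 did not overlap, as in 54.3% of all tested genes. In resistant CM against parental CM the same held of 61.4% of all tested genes and of 7 of the 9, all but MALAT1 and PVT1.

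Between genes, levels were compared per kb of exonic sequence of GENCODE 44, whose models may differ from those counted on. On this scale NORAD led in HCT-8 with 91.1 CPM per kb, and MALAT1 (21.7), NEAT1 (15.8), TUG1 (14.6) and OIP5-AS1 (6.25) followed, while CRNDE, KCNQ1OT1, PVT1 and MIR17HG were under 1 CPM per kb. In HCT-8/FU NORAD had 126 and MALAT1 44.02 CPM per kb, and TUG1 (20.9) stood above NEAT1 (15.8), the one change of order among the first 5. As a description over the 8 libraries, the genes with the most similar log2 CPM profile were HLTF-AS1, DDX6 and ELOVL6 for MALAT1 (Pearson r 0.979 to 0.981), ATP6V1C1, MED21 and CUL5 for NORAD (0.996 to 0.997), and CFAP97, IDE and TJP1 for TUG1 (0.998 to 0.999). For NEAT1 they were NIFK-AS1, MMADHC-DT and SERINC5 (0.936 to 0.948), and for KCNQ1OT1 ZC2HC1A, TAF4B and GMCL1 (0.980 to 0.985). For OIP5-AS1 they were MTMR2, PLD1 and DDX18 (0.978 to 0.980), for CRNDE CCDC122, ANKRD36BP1 and ZNF440 (0.969 to 0.980), for PVT1 PGBD1, SHANK2 and NSRP1 (0.799 to 0.901), and for MIR17HG BTC, LNX1 and DISC1 (0.883 to 0.899).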

How the data were processed

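RNA-seq libraries of 8 samples in 4 groups, 2 per group, were compared. Per the labels, the authors captured polyadenylated RNA, aligned reads to GRCh38 (hg38) with HISAT2, and used SAMtools 1.18, HTSeq 0.11.2 and DESeq2 1.30.0. The deposited per-sample files hold raw counts per Ensembl gene, with the summary lines of the counting. The deposited comparison tables hold the authors' fold changes, errors, statistics and p-values, and none was used. No source used here says how strand was set in the counting.

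Summary lines were left out of library sizes. The share of records on no feature was 33.7% to 49.6% and that not aligned 3.58% to 29.6%. Counts of all 8 libraries were fitted together with edgeR 4.0.16 in R 4.3.3 (filterByExpr, TMM scaling, 1 mean per group, quasi-likelihood test, Benjamini-Hochberg adjustment over 20305 genes). CPM are TMM-normalized, and values after a mean are SD of 2 libraries. The SE of a log2 fold change is its size divided by the root of the F statistic. GC content and exonic length came from GENCODE 44 models, which are newer than the annotation counted on; 56105 of 64253 identifiers were found there, and 19857 tested genes had both values. The correction fits a spline with 5 degrees of freedom to each library's deviations. DESeq2 1.42.0 was an alternative, as were other scalings, filters, a replicate block and leaving out each library. Figures were drawn with matplotlib 3.10.9. The scripts were tested on simulated data.

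The members and the gene lists were chosen with earlier results of these data known. Named were all members, at most 4 called genes per list and comparison by size of change, the genes whose relation to a member is explained, and the 3 genes most like each member among those with a mean of at least 5 CPM. RBM14 was named after its values were seen. Replicate numbers of the groups shared no more than a number: the correlation of same-numbered deviations ran from -0.12 to 0.13 over the 6 pairs of groups, and was -0.086 between HCT-8 and HCT-8/FU, -0.028 between the CM groups and 0.13 between HCT-8 and parental CM. Replicates of each group differed by more than sampling noise, so none was counted as a repeat of another. Some genes of the lists are counted but not reported here by name.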

Additional observations from a re-analysis of the deposited data

Results flagged for a closer look

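MALAT1 was called in the test of the difference between its response in the resistant line and in the conditioned medium of that line, a call that ended under several other settings. Its log2 fold change was 1.03 in HCT-8/FU against HCT-8 and 0.30 in resistant CM against parental CM, a difference of 0.73 (SE 0.20, edgeR adjusted p = 0.027). The parental CM libraries held 286 and 181 CPM, and the difference was 0.38 without the first and 1.03 without the second. The call ended without any 1 of the 7 libraries other than parental CM replicate 2, with DESeq2 size factors (edgeR adjusted p = 0.0502), with DESeq2 itself (adjusted p = 0.17) and with only the libraries under 15% not aligned (0.48, under the fold threshold). It held with the GC content and length correction (0.69, edgeR adjusted p = 0.022).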

How the results depend on the processing

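The counts of lncRNAs called were 2, 2, 0 and 1 in HCT-8/FU, in resistant CM, in parental CM against unconditioned medium and in the difference between the first pair of fold changes. The replicate block left them at 2, 2, 0 and 1. In HCT-8/FU the count was 4 with another TMM reference library, where TUG1 (0.61) and CRNDE (0.62) were called too, 1 without a filter on low counts, 1 with the GC content and length correction, 1 with that correction and the block, 4 by the adjusted p alone, and 3 with only the libraries under 15% not aligned, where MIR17HG (1.65) was called too. In resistant CM it was 0 with the correction, 0 with the correction and the block, 4 by the adjusted p alone and 1 with a term that marks the libraries above 15% not aligned. In parental CM it was 2 by the adjusted p alone. For the difference it was 0 with DESeq2 size factors, 0 with DESeq2 itself (1 at an unadjusted p below 0.05) and 0 with only the libraries under 15% not aligned, an alternative chosen after seeing the data that leaves 1 library in 3 groups. Fitting the compared groups alone gives no value for the difference. Leaving out 1 library moved the counts over 1 to 3, 0 to 2, 0 to 0 and 0 to 1. The correction also took the genes called in all from 4325 to 3115 in HCT-8/FU and from 1878 (1619 higher, 259 lower) to 967 (689 higher, 278 lower) in resistant CM. Where no value above shows it, the cause was not tested.

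Of the log2 fold changes of single lncRNAs, 335 kept direction and side of the threshold under the alternatives other than leaving out 1 library. Another 36 turned direction, most of them near 0. In HCT-8/FU, NEAT1 turned to -0.020 without the filter, -0.20 with the correction and -0.21 with correction and block, OIP5-AS1 to -0.13 and -0.14 with these, and PVT1 to -0.015 with the block and -0.010 and -0.050. In resistant CM, OIP5-AS1 turned to -0.10 with the correction and -0.10 with correction and block, MIR17HG to -0.046 and -0.13, and CRNDE to -0.035 with the correction. In parental CM, MALAT1 turned to -0.0088 with DESeq2 size factors, -0.0019 with DESeq2 and -0.25 with the libraries under 15%, NEAT1 to 0.097 with the correction and 0.097 with correction and block, PVT1 to 0.062 and 0.052, CRNDE to 0.21 and 0.21, and MIR17HG to 0.35 and 0.37, to 0.011 with the block, 0.0040 with the term and 0.57 with the libraries under 15%. In the difference, KCNQ1OT1 turned to 0.0021 with a mean count of at least 10, 0.17 with the correction, 0.17 with correction and block, 0.11 with the term and 0.23 with the libraries under 15%, OIP5-AS1 to 0.048 with these libraries, and CRNDE to -0.0060 with DESeq2 size factors, -0.025 without the filter and -0.0066 with DESeq2.

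Leaving out 1 library, 242 values kept direction and side and 28 turned direction. The ranges with a turn were, in HCT-8/FU, -0.44 to 1.31 (MIR17HG), -0.047 to 0.062 (NEAT1) and -0.12 to 0.18 (PVT1). In resistant CM they were -0.0022 to 0.65 (MALAT1) and -0.17 to 0.40 (PVT1). In parental CM they were -0.31 to 0.34 (MALAT1), -0.61 to 0.34 (MIR17HG), -0.34 to 0.23 (PVT1) and -0.51 to 0.10 (CRNDE). For the difference they were -0.31 to 0.16 (KCNQ1OT1), -1.04 to 0.72 (MIR17HG), -0.036 to 0.17 (NEAT1), -0.016 to 0.21 (NORAD), -0.38 to 0.19 (PVT1), -0.20 to 0.087 (TUG1) and -0.38 to 0.22 (CRNDE). Depth limits MIR17HG most, at 6 to 101 counts per library.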

Other observations

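Growth in parental CM, against unconditioned medium, moved some genes around the lncRNAs where none of the lncRNAs themselves was called. Over all tested genes 8.15% were called in this comparison and 3.86% called higher, and with the GC content and length correction 5.77% were called. Of 12 paraspeckle protein genes 3 were called higher, SFPQ (0.64) and RBM14 (0.61) among them. With the correction SFPQ was at 0.72 and RBM14, at 0.57, lost its call. With only the libraries under 15% not aligned, 0 of the 12 were called. Of 13 neighbours 4 were called higher, IRX5 (0.88, edgeR adjusted p = 0.026), which lies beside CRNDE, NUSAP1 (0.74), IRX3 (0.68) and CDKN1C (0.60, edgeR adjusted p = 0.0091), which lies in the domain silenced by KCNQ1OT1. With the correction NUSAP1 (0.66) kept its call, while IRX5 (0.72, edgeR adjusted p = 0.076), IRX3 (0.45, edgeR adjusted p = 0.11) and CDKN1C (0.34, edgeR adjusted p = 0.13) lost theirs.

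DGCR8, the partner of DROSHA in microRNA processing, was higher by 0.78 (edgeR adjusted p = 0.000101) and E2F1 by 1.11, and with the correction they were at 0.73 and 0.92, both called. ZFC3H1 fell by 0.76 (edgeR adjusted p = 0.00049), but with the correction was at -0.49, under the fold threshold. Among the other lncRNAs H19 rose by 1.08, MIR22HG fell by 0.81 and FTX fell by 0.79. With the correction H19 (0.89) and MIR22HG (-0.90) kept their calls and FTX (-0.36, edgeR adjusted p = 0.42) lost its own.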
